A study of Arabidopsis thaliana with 18 samples.

Results

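Chlorophyll, heme and the bilins of phytochrome are all tetrapyrroles, and 36 nuclear genes of their metabolism were followed in wild-type Arabidopsis thaliana at subjective dawn and subjective dusk. The genes were chosen by their known place in the pathway, from the synthesis of 5-aminolevulinic acid (ALA) to chlorophyll, heme and bilin, together with the regulators FLU and GUN4 and the enzymes of chlorophyll breakdown (their choice was made with earlier results of these data known). They were 36 of the 33331 genes listed in the expression table. Polyadenylated RNA from the aerial parts of plants was sequenced for a study of the clock-regulated RNA-binding protein AtGRP7. The series held 18 samples in 6 groups of 3, made of 3 lines at 2 time points, and the 2 wt groups were compared here.

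All wt plants were Col-2 without a transgene. They grew for 16 days under days of 12 h light with nights of 12 h and were then kept in constant light (LL). Harvest took place at subjective dawn, 24 h into LL (LL24), and at subjective dusk, 36 h into LL (LL36), with 3 replicates each that the study described as biological, each a bulk of several plants. Neither group was in darkness during the last 24 h before harvest. The groups differed both in subjective time of day and in time spent in LL, and these cannot be told apart here. The columns of the AtGRP7 overexpression line and of the grp7-1 8i line were not used here, because their names could not be matched to labels, so no line was compared with another. Values are TPM, a gene's share of the library's transcripts corrected for length, which allows levels to be compared between genes. TPM hold no sequencing depth, so no counting interval could be given.

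In plants the pathway starts in the plastid from glutamate bound to tRNA. Glutamyl-tRNA reductase (HEMA) makes the step that is held to set the flow through the whole pathway, and FLU represses it when protochlorophyllide accumulates in the dark. A common trunk leads from ALA to protoporphyrin IX. There the pathway divides, since magnesium chelatase (subunits CHLD, CHLH and CHLI, stimulated by GUN4) inserts magnesium on the way to chlorophyll, while ferrochelatase (FC) inserts iron on the way to heme and the bilins. The enzyme protochlorophyllide oxidoreductase (POR) of flowering plants needs light, so that chlorophyll is not completed in the dark.

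The genes that differed most between dawn and dusk sat at a few steps of this pathway. HEMA1, CHLH, GUN4, the cyclase gene CRD1 and the chlorophyll b synthase gene CAO were between 3.27-fold and 5.67-fold higher at LL24. PORB and the chlorophyll b reductase gene NYC1 were 4.42-fold and 5.51-fold higher at LL36. CHLI1 and SGR1 were also lower at LL36, by smaller amounts. The remaining 26 of the 35 tested members lay within 0.5 of the median change of all genes on the log2 scale. So did 15045 of all 19303 tested genes.

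Promoters of some of the members that carried these differences are shown here so that the motifs they hold can be read directly. Each is the stretch from 250 bases before to 50 bases after the annotated gene start, in the direction of transcription, from the RefSeq annotation of the TAIR10.1 build. Capitals mark matches to 5 motifs, searched on both strands, which are the evening element (AAAATATCT), the CCA1-binding site (AAAAATCT), the G-box (CACGTG), a GLK-type motif (CCAATC) and the I-box (GATAAG). A match on the other strand appears as the reverse complement, such as CTTATC for the I-box. The members higher at LL36 come first, with PORA beside its paralog PORB, followed by 2 members higher at LL24. These 2, CAO and CRD1, were the only lower members past 0.5 with a G-box. Of those not shown, HEMA1 and SGR1 held none of the motifs, CHLH only a GLK-type motif and CHLI1 only an I-box. GUN4 held a CCA1-binding site, a GLK-type motif and an I-box.
PORB promoter, chr4:13725296-13725595, plus strand: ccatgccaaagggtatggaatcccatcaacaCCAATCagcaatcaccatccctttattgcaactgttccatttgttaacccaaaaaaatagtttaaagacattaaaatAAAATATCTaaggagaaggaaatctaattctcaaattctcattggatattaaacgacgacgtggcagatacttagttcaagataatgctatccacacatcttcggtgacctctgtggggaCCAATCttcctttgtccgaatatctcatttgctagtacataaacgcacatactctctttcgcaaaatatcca
PORA promoter, chr5:21992765-21993064, minus strand: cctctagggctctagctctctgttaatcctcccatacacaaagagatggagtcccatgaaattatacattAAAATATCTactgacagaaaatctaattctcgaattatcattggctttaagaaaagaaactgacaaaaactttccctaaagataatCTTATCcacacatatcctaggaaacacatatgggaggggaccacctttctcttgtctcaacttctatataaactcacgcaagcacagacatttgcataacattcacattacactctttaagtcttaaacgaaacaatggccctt
NYC1 promoter, chr4:7686957-7687256, minus strand: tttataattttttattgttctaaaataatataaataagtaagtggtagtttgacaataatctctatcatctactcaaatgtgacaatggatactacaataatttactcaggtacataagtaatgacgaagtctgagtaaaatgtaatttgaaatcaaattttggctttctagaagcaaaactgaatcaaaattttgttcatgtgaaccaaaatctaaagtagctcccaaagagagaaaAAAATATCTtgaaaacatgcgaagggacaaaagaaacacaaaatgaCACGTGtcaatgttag
CAO promoter, chr1:16851222-16851521, minus strand: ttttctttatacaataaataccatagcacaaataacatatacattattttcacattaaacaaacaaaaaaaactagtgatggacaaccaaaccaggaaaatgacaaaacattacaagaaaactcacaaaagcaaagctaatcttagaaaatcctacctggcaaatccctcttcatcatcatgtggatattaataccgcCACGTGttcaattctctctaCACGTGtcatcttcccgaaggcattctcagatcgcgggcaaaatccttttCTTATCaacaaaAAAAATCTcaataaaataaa
CRD1 promoter, chr3:21076255-21076554, plus strand: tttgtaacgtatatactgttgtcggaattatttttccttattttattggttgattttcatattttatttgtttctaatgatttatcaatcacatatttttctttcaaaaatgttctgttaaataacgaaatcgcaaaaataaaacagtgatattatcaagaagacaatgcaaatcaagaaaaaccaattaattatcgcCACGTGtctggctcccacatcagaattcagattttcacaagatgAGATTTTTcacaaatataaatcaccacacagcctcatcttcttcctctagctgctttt

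The evening element, a motif known from genes that peak in the evening, was found in 3 of the 36 member promoters. These were PORA, PORB and NYC1, with the first base 180, 142 and 12 bases before the gene start. PORA and PORB are paralogs, so their matches need not be independent, and PORA was too low to be tested for a change. That is 8.33% of the members. Among all 37897 nuclear promoters of this length, 2.49% held a match, and among those of tested genes 3.1%. Neither CAO nor CRD1 held one. It was in 0 of the 7 promoters of members at least 0.5 lower at LL36 relative to the median of all genes. With a share of 2.49% among all promoters, 0 of 7 is close to that share. Both of the 2 members at least 0.5 higher held it. The CCA1-binding site and the I-box were each in 3 of the 7 lower members and 0 of the 2 higher. The G-box and the GLK-type motif were each in 2 of the 7 and 1 of the 2. CAO held 2 G-boxes, 52 and 32 bases before its start, and CRD1 held 1 G-box 52 bases before its start. G-boxes occurred in 6 of the 36 member promoters (HEMD, CRD1, CAO, FC2, HY2 and NYC1). That is 16.7%, against 6.46% of all promoters and 8.85% of those of tested genes. The CCA1-binding site, a motif bound by the morning factor CCA1, was in 6 member promoters (HEMA2, FLU, GUN4, CRD1, CAO and HY2). Here too the share was 16.7%, against 7.13% of all promoters and 8.12% of those of tested genes. The GLK-type motif was in 6 and the I-box in 7 member promoters, against 12.7% and 15.1% of all. G-boxes and CCA1-binding sites were found in called members of both directions, GLK-type motifs and I-boxes also in members that were not called, and a match of letters does not show that a factor binds there. No motif of the 5 was found in the HEMA1 window.

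**Figure D1:**
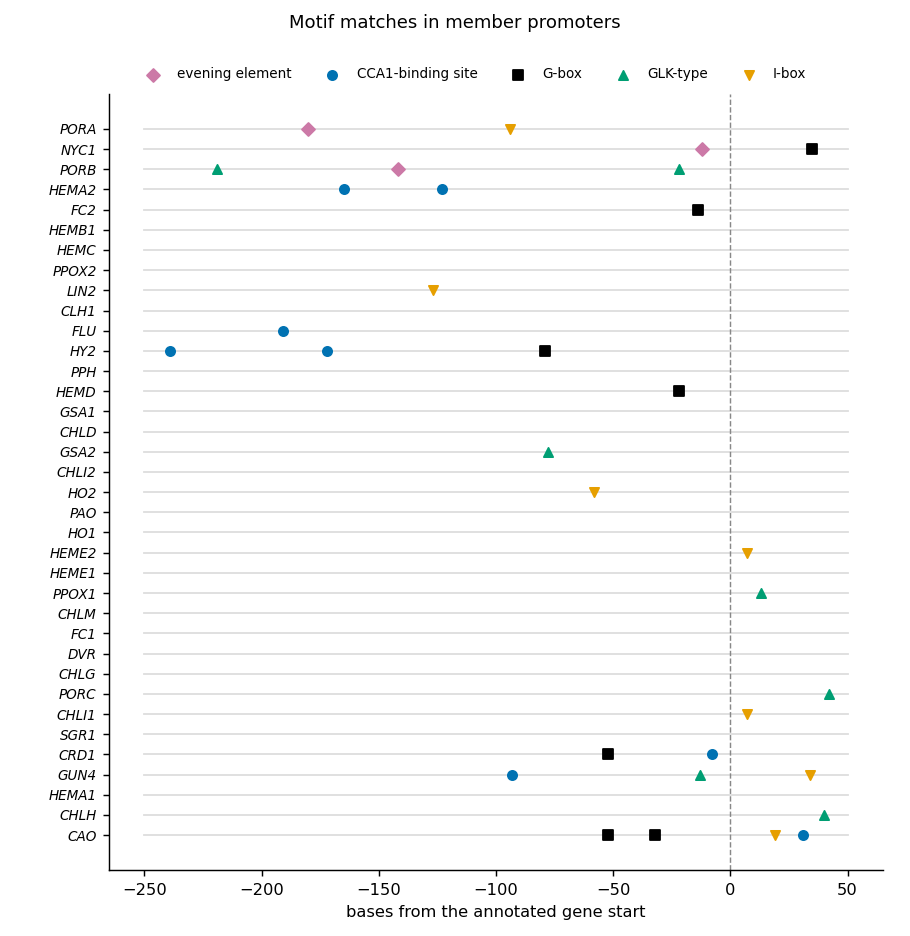
Positions of the 5 motifs in the promoters of all 36 members, in bases from the annotated gene start (dashed line). PORA, which was not tested, stands at the top, and the other members follow from the highest to the lowest change at LL36. Evening elements are seen in the top 3 promoters only.

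Across the tested genes the comparison of LL36 with LL24 was made with limma on log2(TPM + 0.5), and a gene was called at an adjusted p below 0.05. A gene was tested when its mean exceeded 1 TPM at 1 or both time points, which 35 members did. PORA did not. The median of all 19303 tested genes moved by 0.21 on the log2 scale with the TPM as deposited, by 0.01 with median-of-ratios scaling and by 0.04 with quantile normalization. Changes are therefore given as log2 relative to that median shift (written as relative log2 change, with the standard error SE), while each adjusted p belongs to the change itself. Folds are ratios of mean TPM as deposited and contain the shift.

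With TPM as deposited, 24 of the 35 tested members were called (68.6%), against 52.4% of all tested genes. Of these, 16 were higher at LL36 (45.7%, against 41.2% of all genes) and 8 were lower (22.9%, against 11.2%). Median-of-ratios scaling gave 9 higher and 13 lower members. For all 19303 tested genes it gave 3049 higher and 3564 lower, in place of 7949 and 2158. The split thus depended on the scaling for all genes as for the members. Called in the same direction under all 3 scalings were 9 members as higher (25.7%, against 15.7% of all genes) and 8 as lower (22.9%, against 11.1%). The 3 values of LL24 and the 3 of LL36 did not overlap for 24 members (68.6%, against 63.8%). The median relative log2 change of the members was 0.0023, as against 0 for all genes. The median member thus lay close to the median gene. Of all tested genes, 7.33% were called under all 3 scalings and at least 0.5 higher and 9.89% at least 0.5 lower in relative log2 change, which 2 and 7 members did.

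**Figure D2:**
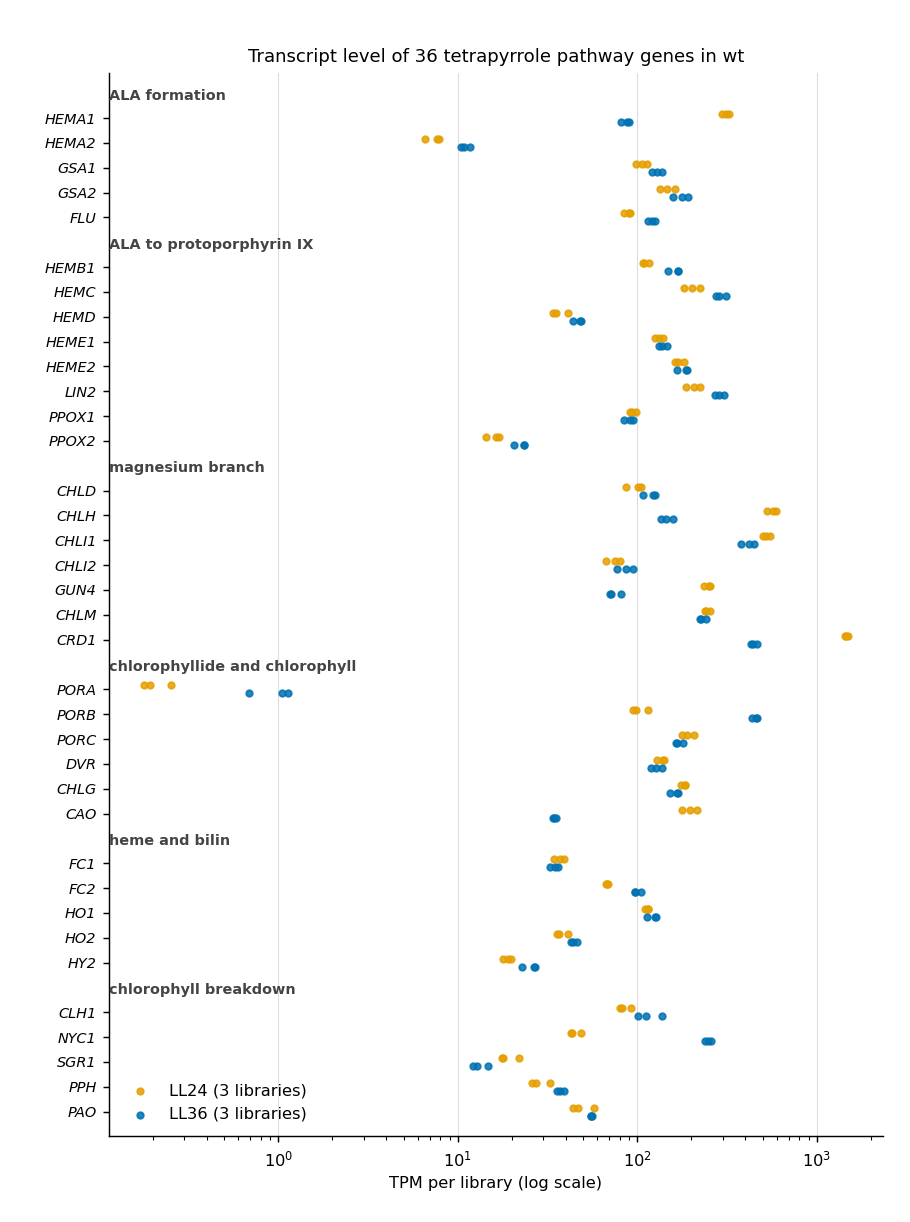
TPM of the 36 members in each of the 6 wt libraries on a log axis, grouped by step (orange, LL24; blue, LL36; each point is 1 library). HEMA1, CHLH, GUN4, CRD1 and CAO are set apart to the left at LL36, PORB and NYC1 to the right, and most other members have points of both times close together.

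At the entry of the pathway, 5 genes act in ALA formation, and HEMA1 was the member of this step that fell. HEMA1 (AT1G58290), the main glutamyl-tRNA reductase gene of green tissue, had 297, 324 and 313 TPM at LL24 and 80.9, 89.9 and 88.2 TPM at LL36. All LL24 libraries were thus more than 3-fold above all LL36 libraries, and replicates of a time point lay close together. Its relative log2 change was −2.06 (SE 0.06, adjusted p = 3.98e-06). HEMA2 (AT1G09940), its paralog expressed in all organs, was called in the other direction, with 7.35 ± 0.714 TPM at dawn and 11.02 ± 0.640 TPM at dusk (mean ± SD, n = 3, as for all such values below), with a relative log2 change of 0.34 (SE 0.09, adjusted p = 0.0027). HEMA1 accounted for 97.7 ± 0.309% of the summed HEMA TPM at LL24 and for 88.7 ± 0.498% at LL36. It was therefore the predominant HEMA transcript at both times.

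FLU (AT3G14110), the repressor of glutamyl-tRNA reductase, had 89.4, 91.2 and 84.1 TPM at LL24 and 114, 126 and 122 TPM at LL36. The groups did not overlap and FLU rose, with a relative log2 change of 0.23 (SE 0.06, adjusted p = 0.0014). The glutamate-1-semialdehyde aminotransferase genes, which complete ALA, stayed near the median gene, with relative log2 changes of 0.07 for GSA1 (AT5G63570) and 0.04 for GSA2 (AT3G48730). GSA1 was called as higher with TPM as deposited (adjusted p = 0.018) and under neither of the other scalings, and without LL36 replicate 2 or 3 its adjusted p was 0.063 or 0.055. GSA2 was not called (adjusted p = 0.068), but was so without LL24 replicate 2 (0.042) or LL36 replicate 1 (0.043).

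In the trunk from ALA to protoporphyrin IX, 4 of the 8 members rose under all 3 scalings (50%, against 15.7% of all genes) and none fell under all 3 (against 11.1% of all genes). These were HEMB1 (ALA dehydratase), HEMC (porphobilinogen deaminase), LIN2 (coproporphyrinogen oxidase) and PPOX2 (protoporphyrinogen oxidase), with relative log2 changes between 0.27 and 0.33. HEMC (AT5G08280) rose from 203 ± 21.1 TPM to 291 ± 18.9 TPM and LIN2 (AT1G03475) from 206 ± 17.4 TPM to 287 ± 15.3 TPM. Both uroporphyrinogen decarboxylase genes kept near their level, HEME1 at 132 ± 7.13 TPM and 139 ± 7.43 TPM, and HEME2 at 171 ± 9.66 TPM and 181 ± 12.6 TPM. Neither was called under any of the 3 scalings, and the values of the 2 times overlapped for both. HEMD (uroporphyrinogen III synthase) was called as higher with TPM as deposited only, and not without LL36 replicate 2 (adjusted p = 0.052). PPOX1 was called as lower with median-of-ratios scaling only. The summed TPM of the step was 970 ± 64.3 at LL24 and 1220 ± 71.5 at LL36.

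The magnesium branch held the largest summed level and the most members that fell. Its summed TPM went from 3211 ± 92.3 at LL24 to 1516 ± 88.4 at LL36, and 4 of its 7 members were called as lower under all 3 scalings (57.1%, against 11.1% of all genes). The median relative log2 change of its members was −0.56, as against 0.20 for the trunk before it. CHLH (AT5G13630), the porphyrin-binding subunit of magnesium chelatase, had 529, 591 and 568 TPM at LL24 and 136, 158 and 145 TPM at LL36. Every LL24 library was more than 3-fold above every LL36 library. The relative log2 change of CHLH was −2.15 (SE 0.07, adjusted p = 6.50e-06).

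The other chelatase subunits moved much less than CHLH. CHLI1 (AT4G18480), the main ATPase subunit gene, had 524, 550 and 503 TPM at LL24 and 380, 445 and 418 TPM at LL36, without overlap, and fell with a relative log2 change of −0.56 (SE 0.07, adjusted p = 0.0077). For CHLI2, its minor paralog, the levels were 74.2 ± 6.60 TPM and 86.5 ± 8.72 TPM, with overlapping groups, and was not called. CHLD (AT1G08520), the third subunit, had 97.5 ± 9.86 TPM and 118 ± 9.42 TPM. CHLD was called as higher with TPM as deposited (adjusted p = 0.045) but under neither other scaling, and its adjusted p was between 0.071 and 0.13 without LL24 replicate 1 or 3 or LL36 replicate 2 or 3. Within a library, the ratio of CHLH to CHLD TPM was 6.13, 5.61 and 5.63 at LL24 and 1.26, 1.27 and 1.18 at LL36. The transcripts of these 2 subunits thus stood near a ratio of 1 at dusk and far from it at dawn. The ratio was chosen after the values were seen and is given as a description.

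GUN4 (AT3G59400), which binds porphyrins and stimulates the chelatase, changed in the same direction as CHLH. It had 252, 253 and 236 TPM at LL24 and 71.8, 81.1 and 70.5 TPM at LL36, a relative log2 change of −1.94 (SE 0.07, adjusted p = 9.11e-06). The CHLH to GUN4 ratio was 2.28 ± 0.161 at LL24 and 1.97 ± 0.0856 at LL36. The libraries were taken not to mark strand, which the study does not state. As 73.0% of the exon bases of GUN4 are overlapped by the antisense gene GCN2 (AT3G59410), reads of these genes then cannot be fully told apart. GCN2 was listed at 7.33 ± 1.25 TPM at LL24 and 9.02 ± 0.490 TPM at LL36, was not called, and did not fall with GUN4. Among the other members, the largest overlap with other genes was 12.9% of exon bases, for CRD1.

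Downstream of the chelatase, the methyltransferase gene CHLM and the cyclase gene CRD1 differed. CRD1 (AT3G56940), a subunit of the magnesium-protoporphyrin monomethyl ester cyclase, was the most abundant member at LL24 and ranked 2 at LL36. It had 1456, 1485 and 1438 TPM at LL24 and 442, 467 and 428 TPM at LL36, and the replicates of LL24 differed from each other by only a few percent. Its relative log2 change was −1.92 (SE 0.05, adjusted p = 2.25e-06). CHLM, which acts just before the cyclase, had 245 ± 8.64 TPM and 231 ± 10.04 TPM with overlapping groups. It was not called with TPM as deposited and was called as lower under the other 2 scalings, with a relative log2 change of −0.30.

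**Figure D3:**
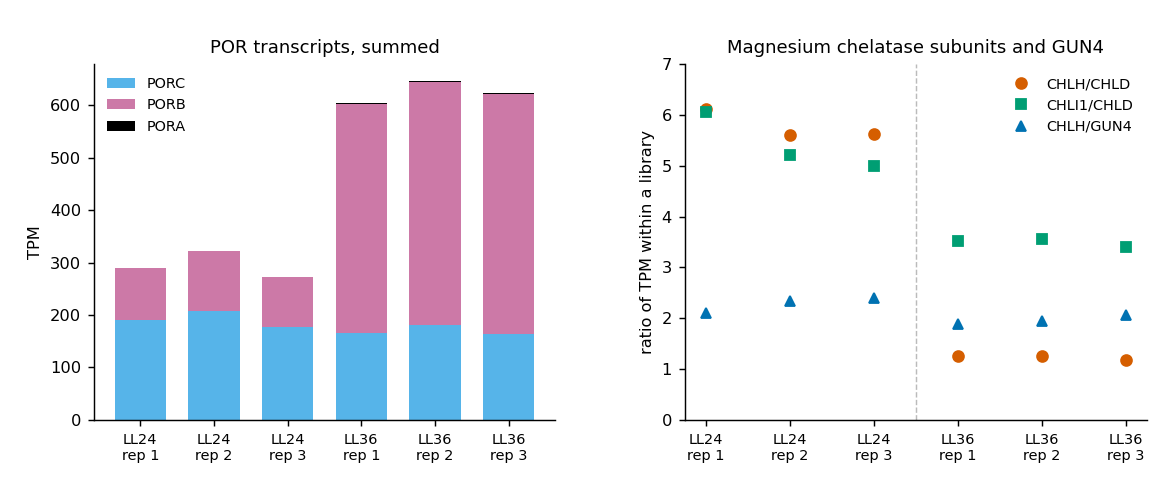
Left, summed TPM of PORC, PORB and PORA in each wt library, stacked from 0. Right, ratios of TPM within each library for CHLH to CHLD, CHLI1 to CHLD and CHLH to GUN4. The PORB share of the sum is 34.7% at LL24 and 72.6% at LL36, and the CHLH to CHLD ratio drops from near 6 to near 1 while the CHLH to GUN4 ratio stays near 2.

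Of the POR genes, PORB rose and was the only member of the chlorophyllide and chlorophyll step called as higher. PORB (AT4G27440), a POR gene active in greening and green tissue, had 98.8, 114 and 94.4 TPM at LL24 and 437, 465 and 458 TPM at LL36. The groups were far apart, and PORB was the most abundant member at LL36 after ranking 19 at LL24. Its relative log2 change was 1.93 (SE 0.08, adjusted p = 6.31e-06), rank 142 from the top of the 19303 tested genes. PORC (AT1G03630), the POR gene tied to high light and mature leaves, had 191, 208 and 178 TPM at LL24 and 166, 180 and 164 TPM at LL36. Its groups overlapped, and it was called as lower with median-of-ratios scaling (adjusted p = 0.0057) but not with TPM as deposited (0.083) or quantile normalization (0.055). Leaving out LL24 replicate 3 brought PORC to 0.043 with TPM as deposited.

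PORA (AT5G54190), the POR gene of etiolated seedlings that is repressed by light, was near 0 in these green plants. It was listed at 0.179, 0.253 and 0.193 TPM at LL24 and at 1.05, 0.687 and 1.13 TPM at LL36. All LL36 values were above all LL24 values, but the level was too low for the test and no change was called. As a description, PORB supplied 34.7 ± 0.668% of the summed POR TPM at LL24 and 72.6 ± 0.789% at LL36, while PORC supplied 65.2 ± 0.676% and 27.2 ± 0.821%. The POR sum was 295 ± 25.4 TPM at LL24 and 624 ± 21.2 TPM at LL36.

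Of the remaining members of the chlorophyllide and chlorophyll step, CAO showed the lowest relative log2 change of all tested members. CAO (AT1G44446), the chlorophyllide a oxygenase that makes chlorophyll b, had 177, 196 and 214 TPM at LL24 and 33.8, 34.5 and 35.3 TPM at LL36. The LL36 libraries were nearly equal and all far below LL24. Its relative log2 change was −2.69 (SE 0.08, adjusted p = 3.10e-06), rank 101 from the bottom of all tested genes. DVR, the divinyl reductase, had 137 ± 6.92 TPM and 128 ± 9.001 TPM with overlapping groups, and was called as lower with median-of-ratios scaling only. CHLG, the chlorophyll synthase that joins the phytol tail, was called as lower under all 3 scalings, from 181 ± 4.46 TPM to 162 ± 8.14 TPM (relative log2 change −0.37, adjusted p = 0.048). That call was lost with each of the 6 libraries left out in turn, with adjusted p between 0.057 and 0.14.

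In the heme and bilin branch no member was past 0.5 in relative log2 change. FC2 (AT2G30390), the ferrochelatase gene of photosynthetic tissue, had 67.4, 69.01 and 67.2 TPM at LL24 and 96.6, 105 and 97.2 TPM at LL36. The groups were well apart and FC2 rose under all 3 scalings, with a relative log2 change of 0.34 (SE 0.05, adjusted p = 0.00039). FC1 (AT5G26030), the ferrochelatase gene expressed in all organs, had 37.0, 34.5 and 39.2 TPM at LL24 and 34.8, 32.5 and 36.4 TPM at LL36, with overlap. FC1 was not called with TPM as deposited and was called as lower under the other 2 scalings. The ratio of CHLH, on the magnesium side of the branch point, to FC2, on the iron side, was 8.29 ± 0.380 at LL24 and 1.47 ± 0.0518 at LL36, again as a description.

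The bilin genes stayed within 0.21 of the median gene in relative log2 change. HO1 (AT2G26670), the main heme oxygenase of phytochrome chromophore synthesis, had 114 ± 2.34 TPM and 122 ± 7.35 TPM, with overlapping groups, and was not called under any scaling. HO2 was called as higher with TPM as deposited (adjusted p = 0.041), with a relative log2 change of 0.0023, so that its rise was the shift of the median gene. That call was lost without any 1 of 5 libraries (LL24 replicate 1 or 3, LL36 replicate 1, 2 or 3), with adjusted p between 0.069 and 0.13. HY2, the phytochromobilin synthase, was called as higher with TPM as deposited only, from 18.9 ± 0.937 TPM to 25.4 ± 2.28 TPM.

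Among the 5 genes of chlorophyll breakdown, NYC1 rose and SGR1 fell under all 3 scalings. NYC1 (AT4G13250), a chlorophyll b reductase that converts chlorophyll b on its way back to chlorophyll a, had 48.5, 42.7 and 43.4 TPM at LL24 and 237, 256 and 249 TPM at LL36. All LL36 libraries were far above all LL24 libraries. The relative log2 change of NYC1 was 2.24 (SE 0.07, adjusted p = 1.81e-06), rank 93 from the top of all tested genes. CAO and NYC1, which make and reduce chlorophyll b, thus moved in opposite directions. The NYC1 to CAO ratio was 0.275, 0.218 and 0.203 at LL24 and 7.01, 7.44 and 7.05 at LL36. This ratio too was chosen after the values were seen. A further chlorophyll b reductase gene, NOL, was not called and is described below.

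SGR1 (AT4G22920), the STAY-GREEN protein that removes magnesium from chlorophyll a, had 21.99, 17.9 and 17.5 TPM at LL24 and 12.8, 12.2 and 14.7 TPM at LL36. The groups did not overlap, although the nearest values of the 2 times were less than 3 TPM apart. Its relative log2 change was −0.72 (SE 0.11, adjusted p = 0.0097). PPH, the pheophytinase, and CLH1, a chlorophyllase, were called as higher with TPM as deposited only. The call of PPH was lost without LL36 replicate 3 (adjusted p = 0.052) and that of CLH1 without LL24 replicate 2 (0.054) or 3 (0.058). PAO, the pheophorbide a oxygenase that opens the ring, had 49.4 ± 7.35 TPM and 55.4 ± 0.597 TPM and was not called, except without LL24 replicate 1 (adjusted p = 0.0094), where PAO was highest. Of 3 senescence markers, SAG12 was listed at a mean of 0.016 TPM at LL24 and 0.015 TPM at LL36, ORE1 at 5.65 ± 1.57 TPM and 6.49 ± 2.76 TPM, and SAG13 at 51.7 ± 20.3 TPM and 43.6 ± 23.0 TPM. The values of the 2 times overlapped for each, and neither ORE1 nor SAG13 was called.

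**Figure D4:**
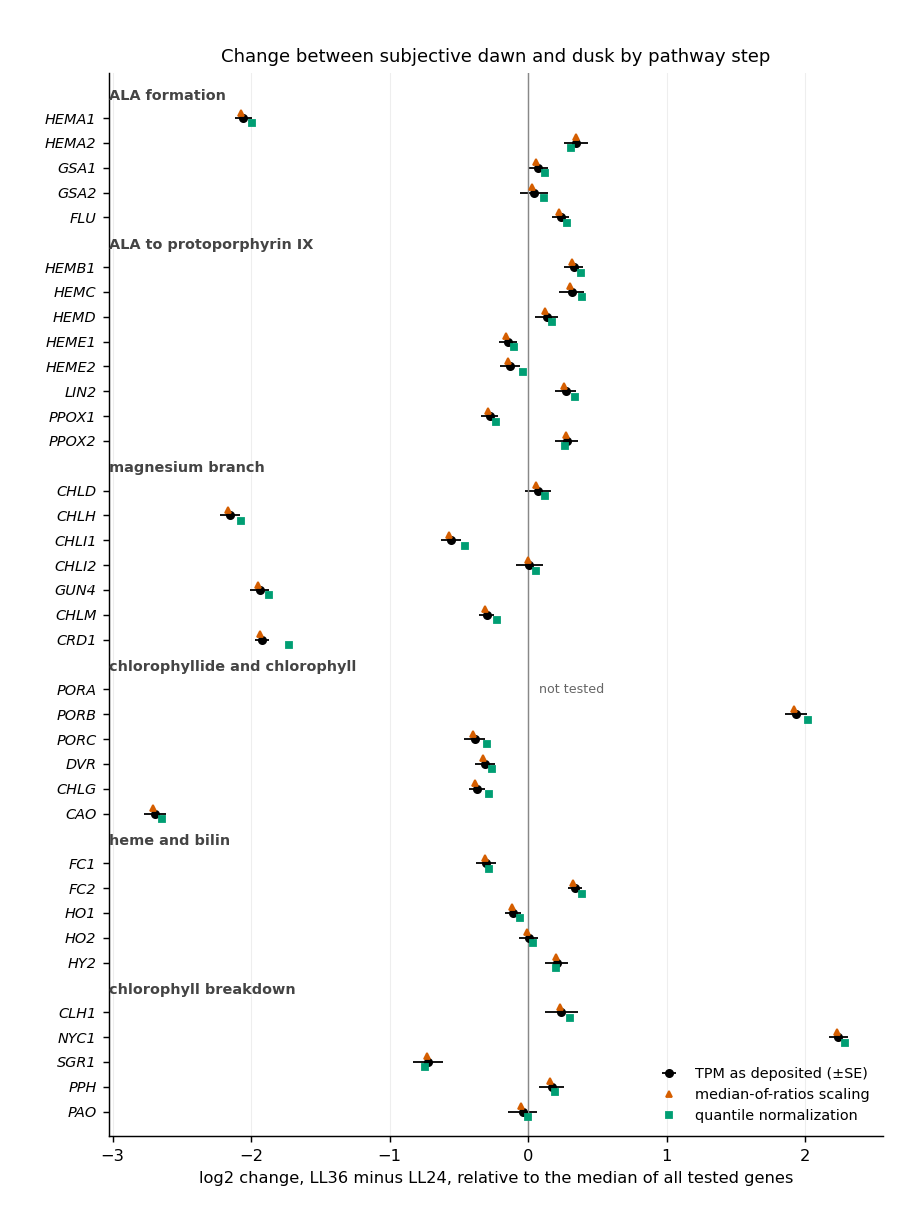
Log2 change of each tested member, LL36 minus LL24, relative to the median of all tested genes, under 3 scalings (black with SE, TPM as deposited; orange, median-of-ratios; green, quantile). For the 9 members beyond 0.5 with TPM as deposited, the 3 scalings lie on the same side of 0.

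For 9 pairs of paralogs, or of genes for the same enzyme, the log2 ratio was taken within each library, which does not depend on the scaling. The difference between the times was −2.40 for HEMA1/HEMA2, 2.32 for PORB/PORC, −0.64 for FC1/FC2, and −0.56 for both CHLI1/CHLI2 and PPOX1/PPOX2. For these 5 pairs the ratios of LL24 and LL36 did not overlap, and the exact permutation test (two-sided) gave p = 0.1, the smallest that 3 against 3 libraries allow, or 0.15 after adjustment over the 9 pairs. This design cannot reach 0.05. The ratio hardly moved for GSA1/GSA2 (0.03), HEME1/HEME2 (−0.015) and HO1/HO2 (−0.11), whose groups overlapped, with exact p of 0.5, 0.9 and 0.2. No pair shared a stretch of 100 bases, the read length before trimming, in its annotated transcripts. Trimmed reads can be shorter, and shorter stretches were not checked. For PORA/PORB the difference was −1.12 with the pseudocount of 0.5, also with p = 0.1 in the exact test, but PORA is near 0 and this value came from the pseudocount. Without a pseudocount the mean TPM of PORA and PORB differed between the times by similar factors, 4.58-fold and 4.42-fold, so no shift between these paralogs was read from it.

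Further genes of the pathway, 23 in all, were looked at beside the members. Of the 20 that were tested, 6 were called as higher and 5 as lower with TPM as deposited, and 2 and 5 were so under all 3 scalings. As shares, 30% were higher and 25% lower as deposited, against 41.2% and 11.2% of all genes, and 10% were higher and 25% lower under all 3 scalings, against 15.7% and 11.1%. CHLP (AT1G74470), the geranylgeranyl reductase that supplies the phytol tail, had 1033, 1056 and 1026 TPM at LL24 and 501, 566 and 522 TPM at LL36, and fell with a relative log2 change of −1.19 (SE 0.06). SGRL (AT1G44000), a relative of SGR1, fell from 211 ± 12.1 TPM to 77.9 ± 1.27 TPM. MES16 and RCCR, of late chlorophyll breakdown, also fell, with relative log2 changes of −1.04 and −0.52, whereas TIC55 and CYP89A9 of late breakdown were not called with TPM as deposited, and TIC55 was called as lower under the other 2 scalings. LCAA (AT5G58250), which is needed for the cyclase in which CRD1 acts, rose under all 3 scalings, from 282 ± 17.7 TPM to 376 ± 12.6 TPM (relative log2 change 0.21, SE 0.06, adjusted p = 0.0021), while CRD1 fell.

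HCAR (AT1G04620), the reductase that acts after NYC1 in returning chlorophyll b to chlorophyll a, rose from 44.0 ± 3.27 TPM to 102 ± 5.30 TPM with a relative log2 change of 0.99 (SE 0.07, adjusted p = 5.13e-05). NYC1 and HCAR, which act in sequence, were thus both higher at LL36. NOL, the other chlorophyll b reductase gene, had 26.1 ± 3.14 TPM and 28.1 ± 1.25 TPM and was not called. GLK2 (AT5G44190), a transcription factor of chlorophyll and photosynthesis genes, fell from 55.8 ± 2.59 TPM to 25.5 ± 0.587 TPM. Its paralog GLK1 had 80.0 ± 4.60 TPM and 102 ± 5.88 TPM and was called as higher with TPM as deposited and with quantile normalization but not with median-of-ratios scaling.

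**Figure D5:**
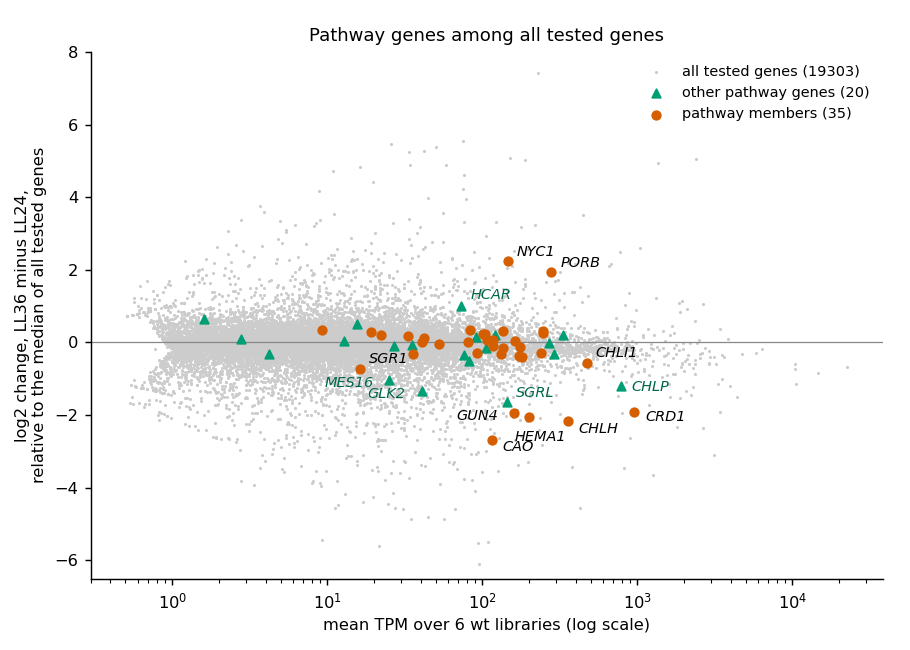
Relative log2 change, LL36 minus LL24, against mean TPM over the 6 wt libraries (log axis) for all 19303 tested genes (grey), the 35 tested members (orange circles) and 20 further pathway genes (green triangles). NYC1 and PORB lie among the upper grey points, at ranks 93 and 142 from the top. CAO, CHLH, HEMA1, GUN4 and CRD1 lie among the lower ones, at ranks 101, 198, 221, 258 and 264 from the bottom.

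The labels were checked on clock genes. CCA1 and LHY were high at LL24, AtGRP7, TOC1 and GI were high at LL36, and none of the 5 overlapped between times. Markers of green tissue (RBCS1A, RCA, LHCB1.2, CA1 and GAPA) summed to between 25980 and 41510 TPM in every library, and those of roots and flowers to between 1.42 and 6.20 TPM. All 5 green-tissue markers were called as lower at LL36 with TPM as deposited, 3 of them under all 3 scalings, and their sum was 40400 ± 1161 TPM at LL24 and 26930 ± 1283 TPM at LL36. Their part in the fall of the members was not tested. In these bulk samples, fewer green cells and less RNA per green cell cannot be told apart. Replicate 3 of each time had the highest value of the group for most of 11 rapid-response genes (9 at LL24 and 10 at LL36). At LL36, 26 of the 36 members were highest in replicate 2 and 26 were lowest in replicate 1. This was not counted over all genes, so it cannot be read as particular to the members. The 9 members past 0.5 kept direction and call without any 1 library.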

How the data were processed

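RNA-seq libraries of wt plants at LL24 and LL36 (3 each) were analysed. Per the study's methods, libraries were made with a TruSeq RNA kit and only the first reads were used. The methods do not mention strand, and the libraries were taken here to be unstranded. Reads were trimmed with Sickle and mapped with STAR 2.5.2a to the atRTD transcripts of TAIR10. Transcripts were estimated with Salmon 0.8.2 and summed by gene with tximport, and rRNA, mitochondrial and chloroplast genes were left out. The deposited values were TPM per gene. The sources used here do not say how gene TPM were summed. In the table, 12 further columns of per-sample values matched no label and were not used, so the planned comparisons between lines were not run.

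Genes were tested if the mean of 1 or both groups exceeded 1 TPM. Values entered as log2(TPM + 0.5), which understates changes of low genes, and the fit was made in R 4.3.3 with limma 3.58.1 (mean-variance trend, no block, two-sided). P-values were adjusted by Benjamini-Hochberg over all 19303 tested genes, and calls were made below 0.05. The script was tested on simulated data. Paralog ratios were compared with exact permutation tests (scipy 1.17.1). Alternatives were 2 pseudocounts, 2 filters, 2 scalings, no trend, the replicate number as a block, removal of GC and length trends, removal of the 100 most abundant genes, and leaving out each library. Members named with values in every library were those called alike under all 3 scalings with a relative change of at least 0.5, plus branch-point and regulatory genes. The members and lists were chosen with earlier results of these data known.

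Gene models, promoters and overlaps came from RefSeq TAIR10.1, which matched all 36 members. Its nuclear chromosomes are those of TAIR10.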

Additional observations from a re-analysis of the deposited data

How the results depend on the processing

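The 9 members named for a relative change of at least 0.5 kept their direction and call under each of the 16 alternatives. Of the 35 tested members, 17 did so under every alternative and 18 did not under some. Scaling mattered most. With median-of-ratios scaling and quantile normalization, 6613 and 6635 of all tested genes were called in place of 10107. Of these, 3049 and 3610 were higher in place of 7949, and 3564 and 3025 were lower in place of 2158. Among the members, 9 and 9 were called as higher in place of 16, and 13 as lower with median-of-ratios in place of 8. The median gene shifted by 0.21 with TPM as deposited and by 0.01 and 0.04 under these scalings, which is the difference in their construction. Log2 changes turned negative, with no call on either side except HO2 as deposited, for HEME1 (−0.15 with median-of-ratios, −0.056 with quantile, −0.044 without the 100 most abundant genes), HEME2 (−0.13 with median-of-ratios, −0.029 without those genes), HO1 (−0.11, −0.017 and −0.0069 in the same order as HEME1), HO2 (−0.00049) and PAO (−0.043), the last 2 with median-of-ratios. The PORA/PORB difference of −1.12 was −0.39 with a pseudocount of 0.1 and −1.45 with 1, PORA being near 0. Leaving out 1 library gave 7741 to 9571 called genes, 19 to 23 called members, 12 to 16 higher and 7 to 8 lower, and no member changed sign.

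Replicate numbers were not taken to pair the samples. Deviations of same-numbered libraries correlated with r = 0.128, 0.148 and 0.034, and different numbers gave −0.133 to 0.0089, so each sample correlated best with its own number, which is a hint from the data and not from the design. When the replicate block was fitted, 9947 genes and 26 members were called, 17 higher and 9 lower, with GSA2 and PORC added. TPM hold no depth, so counting error could not be separated from the spread between libraries, and 3 libraries per time limit what could be called. PORA and 3 of the 23 further genes were too low to test.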
